A study of Rattus norvegicus with 12 samples.

Results

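Kidney circular RNAs (circRNAs) that were present on every array of 1 rat strain and on no array of another are described here. A circRNA probe was called "on" in a strain when the scanner software marked it as well above background on all 3 of the strain's arrays, "off" when it did so on none, and "mixed" when it did so on 1 or 2. Of 14145 circRNA probes, 217 were on in at least 1 strain and off in at least 1 other (1.53%), while 9582 were on in all 4 strains and 909 were off in all 4. These flags chose the circRNAs, so the differences between strains that follow are descriptions unless a test is named.

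The arrays held total RNA from the kidneys of 12 male rats aged 57 days, with 1 array per rat and 3 rats per strain. Among the strains, 2 are hypertensive models, namely the Dahl salt-sensitive rat (S) and the spontaneously hypertensive rat (SHR). Their normotensive counterparts are the Dahl salt-resistant rat (R) for S and the Wistar Kyoto rat (WKY) for SHR. Every rat had been weaned at 28 to 30 days and ate a low-salt diet with 0.3% NaCl, and salt in the diet is what raises the blood pressure of S. The labels name no blood pressure, cage or litter, and whole kidney was used, so fewer cells of a type and less RNA per cell cannot be told apart.

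A circRNA forms when a downstream splice site of a transcript joins an upstream one and closes the RNA into a ring without free ends. Rings withstand the exonuclease RNase R, which degrades linear RNA from a free end, and the total RNA was treated with this enzyme before labelling. CircRNAs are long-lived, often low in abundance, and differ between tissues. S and R were bred from 1 outbred stock by selecting for opposite responses to salt, and SHR was bred from Wistar Kyoto rats, so each hypertensive strain is closer by descent to its own counterpart than to the other model. Host genes, genome positions and sequences of the probes were not used here, and each circRNA is named by its probe.

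Signals are given on the log2 scale, with the 75th percentile of each array's circRNA probes set to 0. The dimmest probe still marked well above background, called the array's limit below, differed between arrays and ranged from -5.29 to -4.61 in R, from -4.64 to -3.96 in WKY, from -4.98 to -4.02 in SHR and from -5.06 to -3.09 in S. The highest of these limits was that of S rat 1, on which 70.3% of all circRNA probes were well above background, against 83.9% to 91.1% on the other arrays. Of 924 negative control spots over the 12 arrays, 4 were marked well above background (0.433%). SHR rat 2 stood apart from SHR rats 1 and 3, with 143 of the 217 circRNAs well above background against 71 on each of the others. S rat 2 had 134, against 60 and 106 on S rats 1 and 3. The file headers gave 2 scan dates, and arrays with the same scan date are said here to lie on the same slide. No slide number was read. S, R and WKY rats 1 and 2 shared slide 1, and WKY rat 3 and SHR shared slide 2. Of 23 kidney and leukocyte marker genes listed for a check of the tissue, the arrays had a named mRNA probe for 2. Cyp2e1, an enzyme of liver and proximal tubule, was above background on all arrays. Nlrp3, an inflammasome sensor of leukocytes, was so on 2 of 3 arrays in S and in SHR and on all 3 in R and in WKY. Defining kidney markers such as Lrp2 and Nphs1 had no named probe, so the tissue was not checked further.

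The 217 circRNAs were dim. In its brightest strain the median circRNA of the set ranked at the 21.2th percentile of all circRNA probes, and 4 of the 217 ranked above the median probe. They also varied more within strains, with a median SD of 0.53 against 0.33 for all 12438 circRNAs bright enough to be tested. Their spots had a median row of 108 against 97 for all circRNA probes and a median column of 46 against 41. Whether they cluster on the array was not tested. All 217 are in the deposited value table, which holds 90.8% of all circRNA probes.

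R had the most circRNAs of the set on, with 143, and WKY the most off, with 110. S had 58 on and 76 off, SHR 44 on and 53 off, R 23 off, and WKY 63 on. Over all circRNA probes, too, R had the highest mean share well above background per array, 88.7%. That share was 86.6% in WKY, 86.4% in SHR and 81.4% in S. Most of the set was not all-or-none over the 4 strains, since 86 circRNAs were mixed in 1 strain and 106 in 2, and 25 had no mixed strain. The commonest pattern, in 46 circRNAs, was on in R, off in WKY and mixed in S and SHR, and the next, in 25, was on in S and R, off in WKY and mixed in SHR.

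By strain pair, the largest group was on in R and off in WKY, with 94 circRNAs (0.665% of all probes). In the study's own pairs, 3 were on in S and off in R (0.0212%) and 34 were on in R and off in S (0.24%). Likewise, 5 were on in SHR and off in WKY (0.0353%) and 15 were on in WKY and off in SHR (0.106%). Between the hypertensive models, 20 were on in S and off in SHR (0.141%) and 36 were on in SHR and off in S (0.255%). Across the remaining pairs, 50 were on in S and off in WKY (0.353%) and 43 the reverse (0.304%). Another 38 were on in R and off in SHR (0.269%), 8 were on in SHR and off in R (0.0566%) and 15 were on in WKY and off in R (0.106%).

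**Figure D1:**
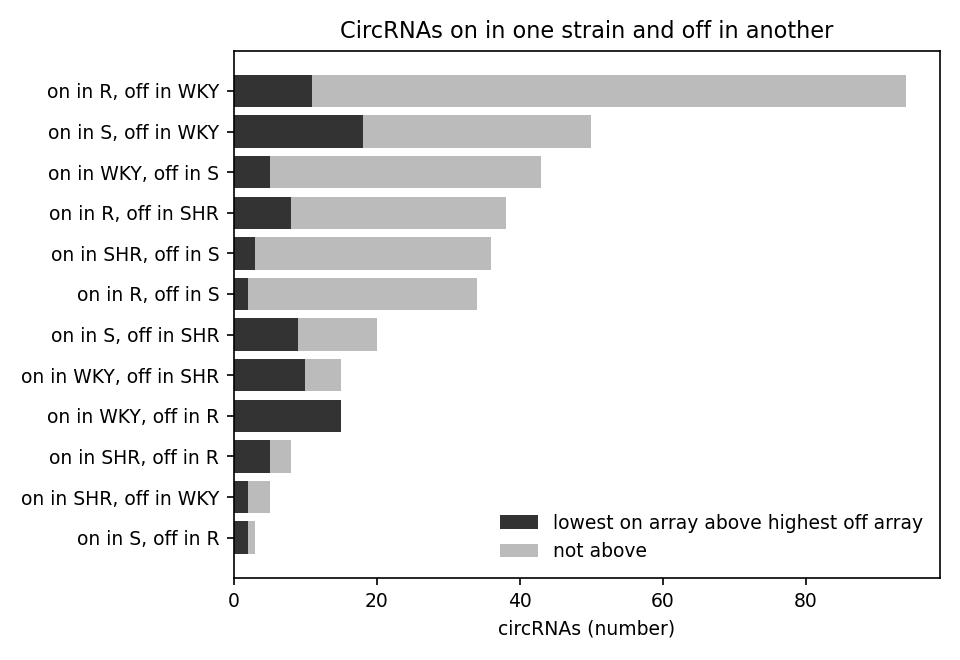
Number of circRNAs on in 1 strain (all 3 arrays well above background) and off in another (0 of 3), one bar per ordered strain pair; a circRNA can be in several bars. Dark parts are circRNAs whose lowest on array lay above the highest off array or its limit, 11 of the 94 that were on in R and off in WKY and all 15 that were on in WKY and off in R.

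A flag can differ between arrays when the signal barely does, so the signals themselves were compared. The gap is the lowest signal over the 3 arrays of the on strain minus the highest over the 3 arrays of the off strain, where an off signal under the array's limit is set to the limit. For a circRNA with several such strain pairs the largest gap was kept. The gap was above 0 for 59 of the 217 circRNAs and not above 0 for 158, and its median was -0.39 log2 units. It reached 1 log2 unit, a doubling, for 17. The group on in R and off in S, in which S rat 1 has the high limit, had a median gap of -1.33, with 2 of 34 above 0. The group on in WKY and off in SHR had a median of 0.70, with 10 of 15 above 0, and the group on in WKY and off in R had 0.46, with 15 of 15. With normexp background correction in place of the software's, 18 of the gaps of named circRNAs turned negative, those of ASCRPR010128, ASCRPR001672, ASCRPR013001, ASCRPR000754, ASCRPR003497, ASCRPR001948, ASCRPR004882, ASCRPR010942 and ASCRPR007857 among them. Wide gaps that kept their sign shrank, to 0.56 between S and WKY for ASCRPR006598 and, between WKY and SHR, to 0.30 for ASCRPR013008, 0.51 for ASCRPR012782 and 0.31 for ASCRPR007329. Between WKY and R they were 0.73 for ASCRPR013885 and 0.58 for ASCRPR001904, between S and R 0.10 for ASCRPR010180 and between SHR and R 0.20 for ASCRPR012629.

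Just inside the rule, ASCRPR000768 had the smallest gap, -2.04, with -5.12, -4.65 and -4.20 on R rats 1 to 3 (on) and -5.31, -5.65 and -4.73 on S rats 1 to 3 (off). The next, ASCRPR001348, had a gap of -1.95 between the same strains, with R at -5.04, -4.65 and -4.20 and S at -5.36, -7.33 and -4.50. Just outside, 827 circRNAs were on in a strain and well above background on 1 of 3 arrays of another. These include circRNAs with large differences. ASCRPR005925 lay at 3.17, 2.49 and 2.62 in S and at -4.13, -1.98 and -4.28 in SHR, where rat 2 passed the flag. ASCRPR002093 lay at 2.00, 0.99 and 1.57 in S and at -3.98, -4.59 and -4.69 in WKY, where 1 array passed.

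**Figure D2:**
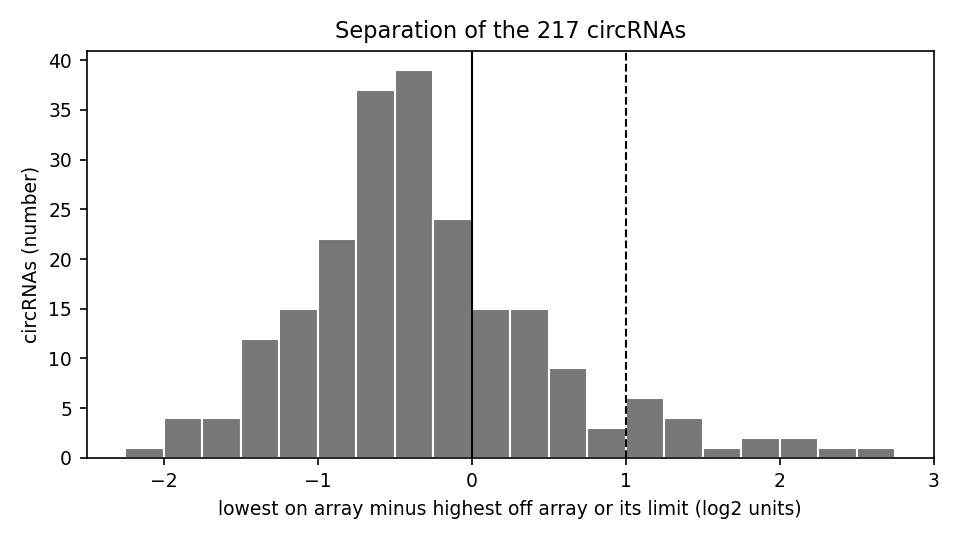
Histogram of the gap of the 217 circRNAs in log2 units, in bins of 0.25; the solid line is at 0 and the dashed line at 1. Most of the set lies left of 0 (158 circRNAs), and 17 lie at 1 or above.

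The 217 circRNAs were then sorted by hypertension. None was on in both hypertensive strains and off in both normotensive strains, and none was on in both normotensive and off in both hypertensive strains (0 in each case). Without S rat 2 and SHR rat 2 these counts were 0 and 9. Of the other ways to set the strains against each other in pairs, 6 were on in S and R and off in SHR and WKY, and 2 were off in S and R and on in SHR and WKY. None was on in S and WKY and off in SHR and R, or the reverse (0 and 0). Less strictly, 2 were on in a hypertensive strain and off in both normotensive ones, and 6 were on in a normotensive strain and off in both hypertensive ones. Another 3 were on in both hypertensive strains and off in a normotensive one, and 26 were on in both normotensive strains and off in a hypertensive one. These looser counts, too, are out of 14145 probes.

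The signals of the same arrays are given as a description. Over the set, the mean of S and SHR minus the mean of R and WKY had a median of 0.08 log2 units, against 0.03 over all 12438 circRNAs tested, and 54.4% of the set were higher in the hypertensive strains, against 53.0% of all. The median absolute difference was 0.44 against 0.26, and 59 of the 217 had an unadjusted limma p under 0.05, against 1083 of the 12438. Flags of these same arrays chose the set for differences between strains, so nothing is read from either comparison. S minus R and SHR minus WKY had the same sign in 55.3% of the set and in 61.6% of all. In none of the 217 did all 6 hypertensive arrays lie above or below all 6 normotensive ones (0 in each direction), against 12 of all tested above (0.0965%) and 8 below (0.0643%). In the fit of the pooled contrast over all circRNAs (limma, Benjamini-Hochberg adjusted p under 0.05), 7 were called higher in the hypertensive strains (0.0563%) and 3 lower (0.0241%), of which 1 and 3 belong to the set. Because the flags of the same arrays chose the set, nothing is read from that count. The number called changed with the rats used. Without S rat 2, 1839 of all circRNAs were called, 50 of them in the set, and without both S rat 2 and SHR rat 2, 2035 and 52. With slide or replicate number as a block, and without S rat 3, without rat 1 or 2 of R, or without rat 1 or 3 of WKY or of SHR, none was called (0), and without WKY rat 2, 1.

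In 3 of the 4 called circRNAs the difference lay in 1 strain pair. ASCRPR012782 had a pooled difference of -2.44 (SE 0.36, limma adjusted p = 0.0418), but S and R means of -3.45 and -3.49 beside SHR and WKY means of -6.58 and -1.66. For ASCRPR001921 the pooled difference was -1.92 (SE 0.30, adjusted p = 0.0418), with S and R at -4.36 and -4.49, SHR at -6.57 and WKY at -2.60. ASCRPR010128 had -1.70 (SE 0.24, adjusted p = 0.0297) and was off in S alone, with 0.14 for SHR minus WKY. ASCRPR000754 had 1.33 (SE 0.20, adjusted p = 0.0418) and was off in WKY alone, with 0.95 for S minus R and 1.71 for SHR minus WKY. Signals under an array's limit enter these differences as measured. The calls were lost in 13 to 16 of 20 alternatives each. With the replicate block the differences were the same, at adjusted p = 0.0874 to 0.168 in limma. With slide as a block they were 1.38 for ASCRPR000754, -2.08 for ASCRPR001921, -1.78 for ASCRPR010128 and -2.50 for ASCRPR012782, at adjusted p = 0.26. With normexp background correction they were smaller, at 0.46, -0.10, -0.071 and -0.27 in the same order.

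The strain pairs share no arrays, so circRNAs chosen on 1 pair can be read in the other. Of the 34 circRNAs on in R and off in S, 21 were higher and 13 lower in SHR than in WKY, with a median difference of 0.15 log2 units against 0.03 over all tested circRNAs. The 3 on in S and off in R had a median of 0.18. Of these 37, none was called in SHR minus WKY (limma, 0 at adjusted p under 0.05 and 1 at an unadjusted p under 0.05), where 0.0965% of all were called. Of the 15 on in WKY and off in SHR, 11 were higher and 4 lower in S than in R, with a median of 0.26. Of the 20 circRNAs on or off between SHR and WKY, none was called in S minus R (0 at adjusted p under 0.05, 3 at an unadjusted p under 0.05), where 0.0965% of all were. With so small a share of all circRNAs called, a count of 0 among 37 or 20 is near the background. Without S rat 2 the second count was 5.

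Of the strain pairs, on in WKY and off in SHR had the highest median gap, 0.70, while the other groups off in SHR had medians of -0.23 (on in S) and -0.45 (on in R). A total of 11 were off in SHR and on in both R and WKY, of which 2 were also on in S and 9 were mixed in S, and 6 of the 15 that were on in WKY and off in SHR had a gap of at least 1. ASCRPR013008 lay at -5.33, -5.02 and -4.32 on SHR rats 1 to 3 and at -1.56, -1.28 and -1.44 on WKY rats 1 to 3. It was at -2.71, -2.46 and -3.63 in R and at -3.11, -1.80 and -3.10 in S. All 3 SHR arrays lay below every array of the other strains, and SHR was at least 7.60-fold lower than WKY. This bound, used throughout, sets the mean of the on strain against the mean of the off strain after each off signal under its array's limit is raised to that limit. It is a bound for strain means with the software's background correction, not for single rats or other corrections.

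ASCRPR012782 lay at -6.32, -7.21 and -6.21 in SHR and at -1.80, -1.66 and -1.53 in WKY, at least 6.44-fold lower in SHR. In S it was well above background on rat 2 alone (-2.17, against -3.97 and -4.20 on rats 1 and 3), and R stood at -3.19, -3.00 and -4.28. ASCRPR007329 was on in S, R and WKY and off in SHR. Its values were -6.32, -6.54 and -5.21 in SHR, -1.90, -1.94 and -1.56 in WKY, -2.17, -2.31 and -3.25 in R and -2.81, -1.27 and -2.81 in S, with SHR at least 5.86-fold lower than WKY and at least 4.14-fold lower than S. In all 3 circRNAs WKY rat 3, which shared slide 2 with SHR, lay close to WKY rats 1 and 2 on slide 1. The rule and the ranking by gap chose circRNAs with every WKY array above SHR, so nothing about the slides is read from this. SHR rat 2 was off like SHR rats 1 and 3, as the rule requires.

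The other circRNA on in S, R and WKY and off in SHR was ASCRPR010942, at -4.65, -5.20 and -4.11 in SHR and at -2.52, -2.68 and -3.01 in S. R at -3.23, -3.34 and -3.66 and WKY at -3.05, -3.31 and -3.26 lay between them. SHR was at least 3.07-fold lower than S.

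CircRNAs off in S and on in the other 3 strains numbered 7. ASCRPR010128 lay at -5.33, -6.73 and -6.35 on S rats 1 to 3, while the other strains stood close together. Its means were -2.60 ± 0.29 (SD, n = 3) in R, -2.33 ± 0.10 in SHR and -2.47 ± 0.28 in WKY. S was at least 2.79-fold lower than R and at least 3.36-fold lower than SHR. ASCRPR001672 lay at -4.72, -6.96 and -6.05 in S, against -2.67, -2.23 and -1.24 in R. SHR at -2.88, -1.56 and -2.77 and WKY at -2.71, -2.75 and -2.65 overlapped with R. S was at least 4.10-fold lower than R. The gap between R and S was 0.20 for ASCRPR010128 and 0.41 for ASCRPR001672, and without S rat 1, the array with the high limit, it was 1.21 and 1.42. The gap between SHR and S for ASCRPR010128 was 0.64, and 1.65 without S rat 1. In the remaining 5 the gap was not above 0, with S rat 1 raised to its limit of -3.09. As measured, every S array of ASCRPR010127, ASCRPR001143, ASCRPR001427 and ASCRPR009671 lay below every array of the other strains. This was not so for ASCRPR011964, at -3.96 on S rat 1.

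By the flags, S also had circRNAs that no other strain had on. Most of these were mixed in at least 1 other strain, and their largest pattern, in 10 circRNAs, was off in WKY and mixed in SHR and R. Only ASCRPR001948 and ASCRPR001507 were on in S and off in the other 3 strains. ASCRPR001948 lay at -1.54, -4.57 and -2.87 in S and at -5.77, -6.91 and -6.91 in R. Its largest gap, 0.05 against R, rested on S rat 2, the lowest S array. That array lay below SHR rat 3, at -4.39, and under the limit of WKY rat 2, -3.96. The gap was therefore below 0 against SHR and WKY. ASCRPR001507 had a largest gap of -0.04, also against R, so S was not separated from any other strain once off signals were raised to the limits. As measured, its lowest S array, -4.66 on rat 2, lay above every array of the other strains. The highest of those was -5.00, on WKY rat 3, and none was well above background. ASCRPR010180 separated S from R more evenly, at -2.71, -2.76 and -3.36 against -6.40, -5.05 and -5.01, and S was at least 3.83-fold higher. It was off in SHR and on 1 of 3 arrays in WKY. The circRNA ASCRPR007857 was on in S at -1.25, -2.71 and -1.65 and off in SHR at -6.32, -7.28 and -6.34, at least 5.58-fold lower. R and WKY lay between them, at -4.84 ± 0.46 and -4.28 ± 0.11.

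Several circRNAs were off in WKY or in R. ASCRPR000754 and ASCRPR003497 were off in WKY alone. The first lay at -5.50, -4.72 and -5.27 in WKY and at -1.95, -2.81 and -2.59 in S, at least 3.90-fold lower in WKY than in S. Against SHR, at -3.61, -3.43 and -3.32, WKY was at least 1.94-fold lower. ASCRPR003497 lay at -6.18, -4.44 and -6.85 in WKY and at -3.06, -3.34 and -2.75 in R, at least 2.57-fold lower. ASCRPR001904 was on in WKY at -2.93, -2.05 and -2.30 and off in R at -7.50, -4.84 and -6.91, at least 5.46-fold lower, and 1 of 3 arrays passed the flag in S and in SHR. ASCRPR012629 was on in SHR at -3.38, -3.56 and -3.16 and off in R, where it was at least 2.85-fold lower, but WKY was uneven, with -2.22 on rat 2 against -5.13 and -4.85 on rats 1 and 3. The circRNAs on in R and off in the other 3 strains numbered 3, and the largest gap among them was -0.03, for ASCRPR000175.

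**Figure D3:**
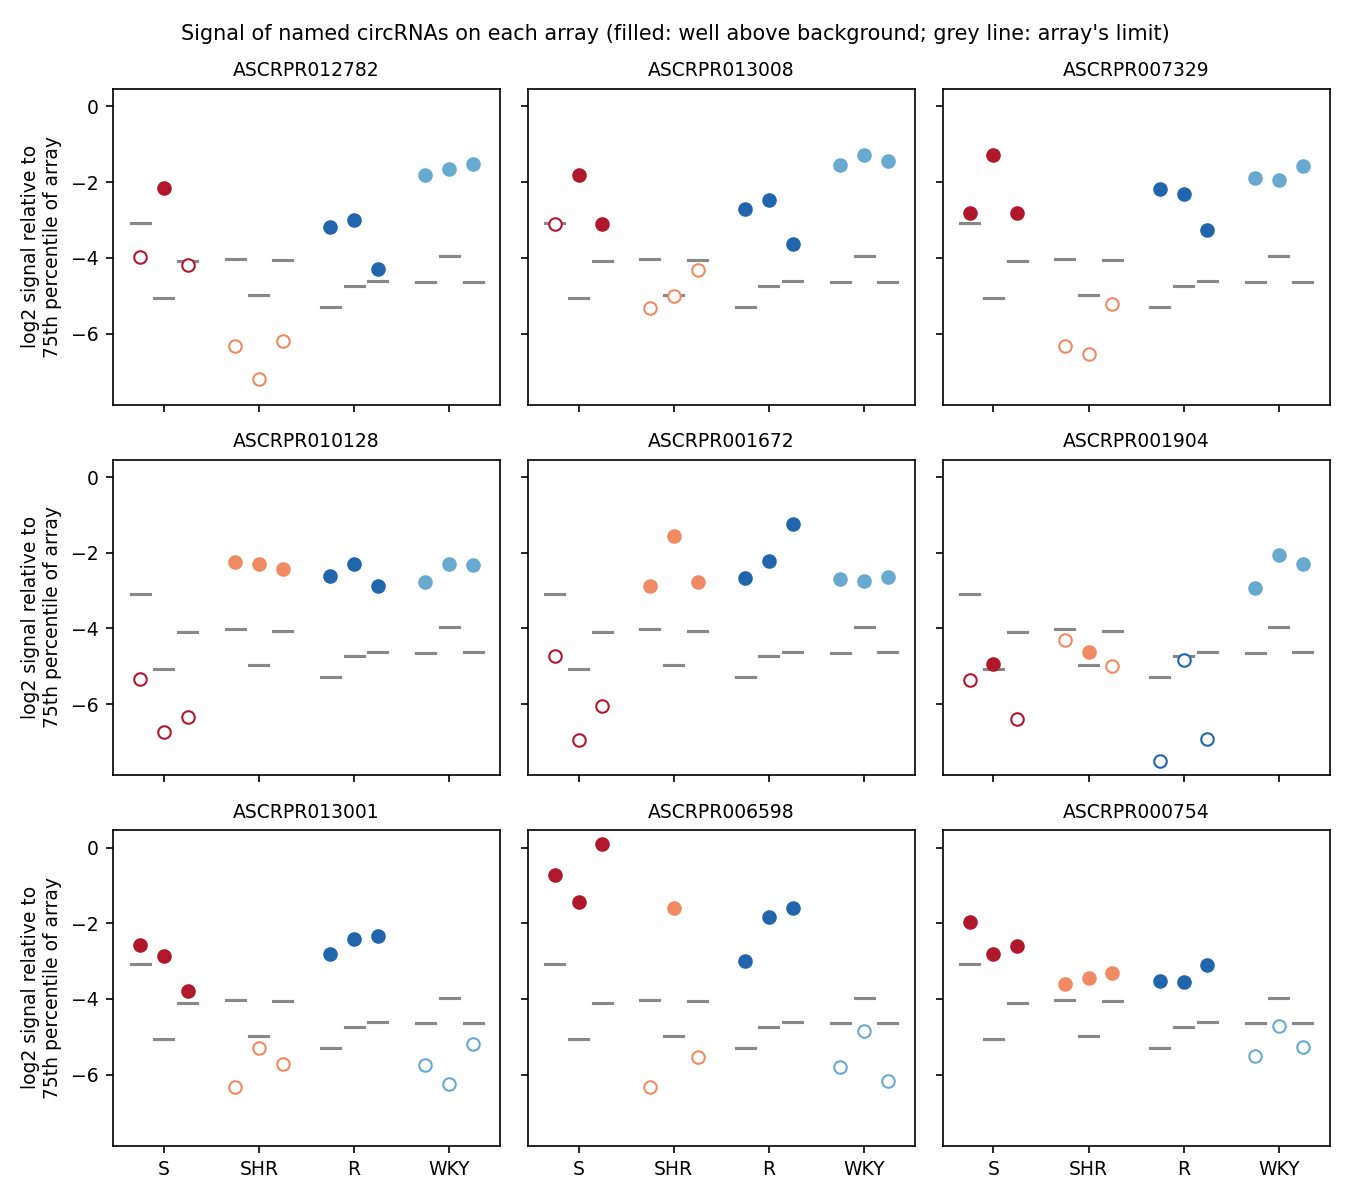
Log2 signal relative to the array's 75th percentile for 9 circRNAs on each of the 12 arrays, with rats 1 to 3 from left to right in each strain. Filled points are well above background, open points are not, and grey lines are the limits of the arrays. ASCRPR012782, ASCRPR013008 and ASCRPR007329 are open on all SHR arrays, ASCRPR010128 and ASCRPR001672 on all S arrays, and ASCRPR006598 is filled on SHR rat 2 but not on SHR rats 1 and 3.

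Some circRNAs set both Dahl strains against SHR and WKY. ASCRPR013001 was on in S at -2.57, -2.87 and -3.78 and in R at -2.81, -2.43 and -2.34. It was off in SHR at -6.32, -5.29 and -5.71 and in WKY at -5.75, -6.25 and -5.18, at least 3.70-fold lower in WKY than in R. ASCRPR006598 had the largest gap of the set, 2.53, with -0.72, -1.43 and 0.08 in S against -5.79, -4.85 and -6.16 in WKY, at least 13.2-fold lower. SHR rat 2 was at -1.59, as high as R at -3.00, -1.83 and -1.60, while SHR rats 1 and 3 were at -6.32 and -5.54. In the opposite direction, ASCRPR013885 was off in S and R and on in WKY at -2.62, 1.86 and -1.47, with a WKY mean at least 17.6-fold above R. The WKY rats were uneven, and the gap between WKY and R was 2.00. On SHR rats 1 and 3 it was at 0.11 and 0.20, and on SHR rat 2 at -7.21. ASCRPR003898 was off in S and R, at -5.11 ± 0.15 (SD, n = 3) and -5.16 ± 0.19, and on in SHR and WKY, at -3.83 ± 0.54 and -3.59 ± 0.52. ASCRPR004882 showed the same pattern, with a gap of 0.11 between SHR and R.

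The 94 circRNAs on in R and off in WKY were read in S and SHR, whose arrays had no part in choosing them. Of these, 86 were higher in S than in SHR and 8 lower, with a median difference of 1.07 log2 units against -0.01 over all tested circRNAs. Their number well above background was 36, 82 and 73 on S rats 1 to 3 and 8, 77 and 10 on SHR rats 1 to 3. The 15 circRNAs on in WKY and off in R went the other way, all 15 lower in S than in SHR, with a median of -1.12. Without S rat 2 and SHR rat 2 the median for the 94 was 1.59, with 84 higher in S, and with normexp background correction it was 0.25, with 94 higher in S.

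Signals under an array's limit enter these medians as measured. The median signal of the 94 was -4.35 on SHR rat 2, close to R (-4.32, -4.21 and -3.83) and to S rat 2 (-4.31), with S rats 1 and 3 at -3.44 and -3.58. SHR rats 1 and 3, at -5.02 and -5.04, lay with WKY at -5.12, -4.99 and -5.13. The signal of 40 probes to linear mRNAs on the same arrays divided the rats in the same way. Their mean was -1.85, -1.88 and -1.86 in R, -2.29, -1.98 and -2.24 in S and -1.86 on SHR rat 2. It was -0.95, 0.08 and -0.24 in WKY and -0.13 and -0.44 on SHR rats 1 and 3. The part of linear RNA in these differences was not tested. Whether the sample or its RNase R treatment differed on SHR rat 2 and S rat 2 was not tested either, and every on and off count of SHR and S includes them.

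**Figure D4:**
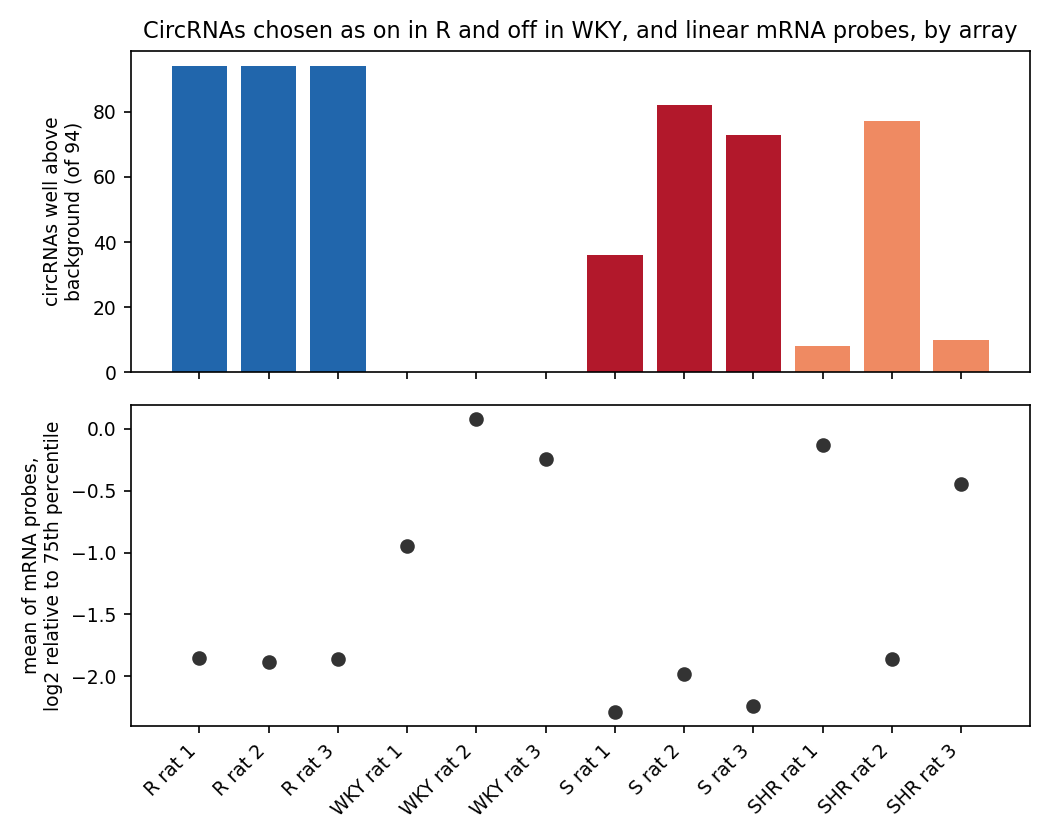
Top, number of the 94 circRNAs chosen as on in R and off in WKY that were well above background on each array (94 in R and 0 in WKY by choice). Bottom, mean log2 signal of 40 linear mRNA probes relative to the array's 75th percentile. SHR rat 2 (77 of 94 circRNAs, mRNA mean -1.86) resembles R and S, and SHR rats 1 and 3 resemble WKY.

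The rule was last applied to 2 rats of each strain and read in the rats left out. Chosen without rat 1 of every strain, 458 circRNAs met it, and all on and off states recurred in the left-out rats for 127 of them (27.7%). Shares by strain follow in the order S, SHR, R and WKY. Those chosen as on were on in rat 1 in 40.4%, 59.2%, 94.4% and 68.8%, against 70.3%, 84.7%, 91.1% and 87.5% of all probes. Those chosen as off were off in 99.1%, 83.7%, 31.5% and 64.2%, against 29.7%, 15.3%, 8.91% and 12.5% of all. Without rat 3 of every strain, 372 met it and 178 recurred (47.8%). Those chosen as on were on in rat 3 in 90.5%, 69.4%, 71.0% and 79.3%, against 83.9%, 85.0%, 87.5% and 87.6% of all probes. Those chosen as off were off in 80.3%, 80.0%, 81.0% and 69.8%, against 16.1%, 15.0%, 12.5% and 12.4% of all. Without rat 2 of every strain, 1183 met it and 86 recurred (7.27%). Those chosen as on were on in rat 2 in 93.4%, 90.1%, 82.6% and 68.3%, against 90.1%, 89.5%, 87.7% and 84.6% of all probes. Those chosen as off were off in 15.6%, 21.3%, 85.7% and 85.3%, against 9.91%, 10.5%, 12.3% and 15.4% of all. In the left-out rats the on strain was brighter than the off strain in 79.2% of 929 strain pairs for rat 1, in 79.1% of 646 for rat 3 and in 55.3% of 2892 for rat 2, which leaves out both S rat 2 and SHR rat 2. A circRNA counts once for each of its strain pairs here, and pairs that share a strain are not independent. The matching share over all circRNAs was not computed, so the shares of 79.2%, 79.1% and 55.3% have no background.

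Membership also moved with the definition of presence. On slide 1 alone, which holds no SHR array, 223 circRNAs met the rule, 178 of the 217 among them, and on slide 2 alone, with SHR and WKY rat 3, 125 did, with 31 of the 217. With 1 common limit for all arrays, that of S rat 1, 460 circRNAs were on in a strain and off in another, and 18 of the 217 were among them. With the software's more lenient flag for a positive and significant signal there were 107, with 10 of the 217. Of the 17 circRNAs with a gap of at least 1, 13 kept their strain pair with the common limit and 4 with the lenient flag, namely ASCRPR012782, ASCRPR001921, ASCRPR007857 and ASCRPR013885.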

How the data were processed

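Kidney circRNAs of 12 rats were measured on 1-colour (Cy3) arrays, 1 per rat. Per the file headers, Agilent Feature Extraction 11.0.1.1 wrote flags and a processed intensity for each spot, with background removed and spatial trend corrected, which the authors deposited without normalization between arrays. The authors' deposited log2 value table was an alternative only, since how it was normalized is not given in the sources used here. From the log2 of each intensity, the array's 75th percentile over circRNA probes was subtracted. Control spots were left out and signals of 40 outlier spots were set to missing, while flags were used as given. No circRNA spot was saturated (0). Signals at the floor of the software have no order among themselves.

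The pooled contrast, (S + SHR)/2 minus (R + WKY)/2, was fitted with limma 3.58.1 in R 4.3.3 with 1 mean per strain on all 12 arrays (8 residual degrees of freedom), over 12438 circRNA probes on in at least 1 strain. S minus R and SHR minus WKY came from the same fit. The fit and the rule were tested on simulated data. The number of arrays limits the precision. Of 44 mRNA probes with a RefSeq accession, 39 matched 1 gene in RefSeq (GRCr8), and the 40 whose mean covers the mRNA signal had over 50% of their spots well above background on all arrays of a strain.

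Named circRNAs had the 2 largest gaps in each direction of each strain pair or in each pattern without a mixed strain, the 2 smallest gaps, or the 2 largest differences just outside the rule. ASCRPR001921 was named after its values were seen, because the pooled contrast called it. The circRNAs, lists and tests were chosen with earlier results of these data known. Alternatives concerned the flag rule, limit, slide, rats left out, background correction, scaling, filter, deposited table and blocks.

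Reading circRNAs chosen on 1 strain pair in the other was added after seeing the data. Replicate numbers were not taken as pairs, since the labels name no pairing. Over 18 pairs of same-numbered rats of different strains, deviations from the strain means correlated at -0.54 to 0.52, with a median of -0.18. Over 36 pairs of other-numbered rats they correlated at -0.70 to 0.64, with a median of 0.07. This does not settle whether the rats were paired. The labels do not say that the rats came from separate litters.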

Additional observations from a re-analysis of the deposited data

Results flagged for a closer look

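For 3 named circRNAs the measured signal of every S rat lay on one side of every R rat while that of every SHR rat lay on the opposite side of every WKY rat. Some of these signals are not well above background, where the order means little. The difference between the pairs was not tested, because the flags of the same arrays chose these circRNAs. ASCRPR007857 had 2.97 for S minus R and -2.36 for SHR minus WKY (differences of mean log2 signals). ASCRPR010942 had 0.68 and -1.44, and ASCRPR005960 had -0.63 and 1.19. ASCRPR005960 was off in S at -5.28, -5.27 and -5.30 and on in SHR at -2.27, -2.36 and -2.17. With each signal under its array's limit raised to the limit, an alternative chosen after seeing the data, only ASCRPR010942 of the 3 kept both orders, with 0.68 and -1.14. SHR and WKY then overlapped for ASCRPR007857, with a difference of -0.16, and S and R overlapped for ASCRPR005960, with 0.41.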

How the results depend on the processing

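Leaving out rats, changing the flag rule or changing the background correction moved most counts, and the cause was not tested. Without rat 1, 2 or 3 of every strain, 458, 1183 and 372 circRNAs met the rule in place of 217. There were 454 with on as at least 2 of 3 arrays, 1044 with off as at most 1 of 3, 107 with the lenient flag, 460 with the common limit, 125 on slide 2 alone and 17 with a gap of at least 1. Leaving out S rat 2 and SHR rat 2 was chosen after seeing the data and gave 1013.

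For the same settings, in the order without rat 1, 2 and 3, on as at least 2, off as at most 1 and the lenient flag, the count on in S and off in R was 51, 5, 9, 17, 15 and 5 in place of 3. It was 47 with the common limit, 5 without S rat 2 and SHR rat 2 and 1 with a gap of at least 1. The count on in R and off in S, 34, became 596 and 70 without rat 2 and 3, 88, 503 and 21 under the flag rules, 490 without S rat 2 and SHR rat 2 and 0 with the gap. The count on in SHR and off in WKY, 5, became 43, 21, 35, 36, 31 and 12 in that order, 24 with the common limit, 45 on slide 2, 9 without S rat 2 and SHR rat 2 and 0 with the gap. The count on in WKY and off in SHR, 15, became 36, 223 and 25 without rat 1, 2 and 3, 45 and 86 with on as at least 2 and off as at most 1, 80 on slide 2, 80 without S rat 2 and SHR rat 2 and 6 with the gap.

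CircRNAs on in both hypertensive and off in both normotensive strains numbered 2 without rat 1 and 3 with the common limit. The reverse numbered 1 without rat 1, 47 without rat 2, 2 with on as at least 2, 10 with off as at most 1 and 9 without S rat 2 and SHR rat 2.

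Over all circRNAs the pooled contrast called 10. It called 0 with normexp, 5 with no filter, 5 with a filter on all 12 arrays, 3 in the deposited table, 0 with slide as a block and 2035 without S rat 2 and SHR rat 2. With the replicate block it called 0. Of the 217, it called 4, and 0 with normexp, 8 with quantile normalization, 8 with median scaling, 1 with no filter, 0 with the filter on all 12 arrays, 0 in the deposited table, 0 with slide as a block, 0 with the replicate block and 52 without S rat 2 and SHR rat 2. Of circRNAs on or off between SHR and WKY, S minus R called 5 without S rat 2 and SHR rat 2 in place of 0. The median S minus SHR difference of the circRNAs on in R and off in WKY, 1.07, was 0.25 with normexp and 1.59 without S rat 2 and SHR rat 2.

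Leaving out 1 rat at a time gave 238 to 803 circRNAs under the rule. The counts ran from 3 to 13 (on in S, off in R), 34 to 490 (on in R, off in S), 5 to 24 (on in SHR, off in WKY) and 15 to 80 (on in WKY, off in SHR). They ran from 0 to 4 for both normotensive strains on and both hypertensive off, and were 0 for the reverse. The pooled contrast called 0 to 1839 of all circRNAs and 0 to 50 of the 217, S minus R called 0 to 5 of the circRNAs on or off between SHR and WKY, and the median of 1.07 ran from 0.78 to 1.36.

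With normexp, 18 gaps turned negative. Against SHR they were -0.049 for ASCRPR007857 (S), -0.30 for ASCRPR007329 (R), -0.10 for ASCRPR013001 (R), -0.54 for ASCRPR008757 (S) and -0.18 for ASCRPR010942 (S). Against WKY they were -0.14 for ASCRPR006598 (R), -0.16 and -0.31 for ASCRPR000754 (S and SHR), -0.038 for ASCRPR013001 (R) and -0.28 for ASCRPR003497 (R). Against S they were -0.45 for ASCRPR005960 (SHR), -0.33 and -0.57 for ASCRPR010128 (SHR and R), -0.68 for ASCRPR001672 (R), -0.46 for ASCRPR013885 (WKY) and -0.41 for ASCRPR000752 (WKY). Against R they were -0.15 for ASCRPR001948 (S) and -0.059 for ASCRPR004882 (SHR). Under quantile normalization and under median scaling, 34 named gaps each moved by less than the spread between rats and 1 moved by more.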
